A study of Mus musculus with 2 samples.

Results

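The strongest distal sites of open chromatin in MN1 cells were the 3610 regions chosen by peak score in both replicates of a DNase-seq experiment. DNase-seq maps DNase I hypersensitive sites, stretches of chromatin that the nuclease cuts more readily than their surroundings. MN1 is an immortalized mouse cell line of strain B6NCrl; the labels give no tissue, age or sex. There was 1 group of 2 biological replicates, and both were treated with 10 nM methyltrienolone, a synthetic androgen. An untreated library was not analysed here, so every value is a level in treated cells.

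To find members, peaks of the 2 lists were merged wherever they shared 1 bp or more. A merged region was kept on the 19 autosomes where its highest peak score was 110 or more in each replicate. Its centre had to lie more than 2.5 kb from any annotated transcription start site (TSS), and the region had to lie in no hotspot, the authors' wider regions of cutting, of 2000 bp or more. Of 125221 shared autosomal regions, 74676 were distal and 73056 of these lay outside wide hotspots. The 3610 members were 4.94% of those 73056, and the other 69446 served as the comparison set. A further 435 distal regions met the score but lay in a wide hotspot, and 16182 shared autosomal regions met the score at any position.

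Distal hypersensitive sites are typically enhancers, insulators or promoters missing from an annotation, held open by DNA-binding proteins. CTCF binds insulators and the anchors of chromatin loops. AP-1, a dimer of Jun and Fos proteins, binds enhancers and is switched on by growth signals and by cell activity. NFY is a trimer that binds the CCAAT box, a word known best from promoters. NRF1, ETS and SP/KLF proteins also bind mainly at CpG-rich promoters.

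Among the members with the highest scores, some held promoter-type words and some held none. The 12 highest by the lower of both scores spanned lower scores of 145 to 147. Of these 12, the following 4 are shown because each holds an NFY match, printed in capitals together with matches for AP-2 and SP/KLF. NFY was sought as CCAAT preceded by a pair of purines and followed by C or G and a purine. AP-2 was sought as GCC and GGC separated by 3 bases, which can overlap the NFY word, and SP/KLF as GGGGCGGGG. Sequences are 150 bp of the plus strand of GRCm38 around each region's centre, from RefSeq, and are named by the nearest protein-coding gene. The windows are chr15:73067556-73067705 for Trappc9, chr15:101246386-101246535 for Nr4a1, chr8:3221126-3221275 for Insr and chr5:135903676-135903825 for Hspb1.
Trappc9: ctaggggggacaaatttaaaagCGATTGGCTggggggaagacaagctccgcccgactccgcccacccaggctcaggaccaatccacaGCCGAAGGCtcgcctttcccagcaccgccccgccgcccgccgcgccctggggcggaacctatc
Nr4a1: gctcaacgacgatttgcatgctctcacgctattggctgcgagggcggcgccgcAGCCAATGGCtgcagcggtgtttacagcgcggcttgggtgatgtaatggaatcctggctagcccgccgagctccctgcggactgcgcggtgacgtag
Insr: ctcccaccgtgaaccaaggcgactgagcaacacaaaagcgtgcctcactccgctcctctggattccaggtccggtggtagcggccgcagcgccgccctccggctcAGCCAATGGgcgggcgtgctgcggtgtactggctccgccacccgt
Hspb1: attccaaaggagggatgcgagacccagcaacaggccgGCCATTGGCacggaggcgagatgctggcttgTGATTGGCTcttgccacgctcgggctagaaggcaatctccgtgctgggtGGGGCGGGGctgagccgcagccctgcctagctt

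The Trappc9 and Nr4a1 sites both had scores of 150 in replicate 1 and 147 in replicate 2. The first lay 6427 bp upstream of Trappc9, a gene for a vesicle-trafficking subunit, in intergenic sequence of 67.3% GC with 13 CpG dinucleotides. The Nr4a1 site lay 7808 bp upstream of this gene for an activity-induced nuclear receptor, at 63.3% GC with 16 CpG dinucleotides. The Insr site, with scores of 149 and 147, lay in an intron, 28484 bp upstream of the nearest GENCODE TSS of the insulin receptor gene. Upstream refers to that start alone, and the nearest RefSeq TSS, also of Insr, lay 58416 bp away. The Hspb1 site, with scores of 150 and 146, lay 15733 bp downstream of the TSS of this small heat shock protein gene, and 7265 bp from the nearest TSS of any gene. None of these 4 windows held a soft-masked repeat base.

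The other 8 of the 12 highest sites were nearest to Ddit4, Mdm1, Wnt7b, Arid1a, Psma6, A4galt, Fignl2 and Atp23. Their scores ran from 145 to 150 in replicate 1 and from 145 to 147 in replicate 2. The Wnt7b site (150 and 146), at 72.0% GC, lay 52198 bp from Wnt7b but 75 bp from the RefSeq start of the long non-coding gene D130051D11Rik, a start that the GENCODE models used by the rule do not place there. The Ddit4, Mdm1 and Arid1a windows held none of the 30 motifs searched, and those near Psma6, A4galt and Fignl2 held no NFY, NRF1, ETS or SP/KLF word. Of these 12 sites, 5 lay on chromosome 15 and 3 on chromosome 10.

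For other factors, the highest member that holds the first motif named on its line is shown next, with the matches named on its line in capitals, because the motif results rest on such words. The windows are chr15:83277506-83277655 near A4galt, chr10:126905906-126906055 near Atp23, chr7:110164896-110165045 near Wee1, chr17:47511176-47511325 in Ccnd3, chr12:85486016-85486165 near Fos, chr11:51874366-51874515 near Jade2, chr11:51916126-51916275 near Cdkn2aipnl and chr4:133468176-133468325 near Tent5b. For CTCF the highest member with a match without mismatch is given, and for EBF the highest one whose sequence is printed here.
A4galt, AP-1: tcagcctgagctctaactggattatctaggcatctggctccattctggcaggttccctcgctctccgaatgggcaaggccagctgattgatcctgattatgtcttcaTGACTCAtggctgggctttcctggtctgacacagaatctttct
Atp23, RFX and ETS: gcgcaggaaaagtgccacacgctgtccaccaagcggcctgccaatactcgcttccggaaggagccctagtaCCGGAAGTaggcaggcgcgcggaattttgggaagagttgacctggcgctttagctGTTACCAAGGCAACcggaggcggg
Wee1, CTCF: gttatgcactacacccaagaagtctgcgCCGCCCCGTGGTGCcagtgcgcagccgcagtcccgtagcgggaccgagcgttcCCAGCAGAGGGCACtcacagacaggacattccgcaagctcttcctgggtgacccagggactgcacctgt
Ccnd3, NRF1: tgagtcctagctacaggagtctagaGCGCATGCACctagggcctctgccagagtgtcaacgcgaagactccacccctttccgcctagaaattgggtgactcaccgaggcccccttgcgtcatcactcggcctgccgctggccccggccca
Fos, SRF: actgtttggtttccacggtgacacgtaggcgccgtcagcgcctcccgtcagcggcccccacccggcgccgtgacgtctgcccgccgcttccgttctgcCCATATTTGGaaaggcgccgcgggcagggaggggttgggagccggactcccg
Jade2, steroid receptor: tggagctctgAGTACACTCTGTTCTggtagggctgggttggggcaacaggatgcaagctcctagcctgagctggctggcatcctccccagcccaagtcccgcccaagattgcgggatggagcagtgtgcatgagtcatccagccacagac
Cdkn2aipnl, NFI: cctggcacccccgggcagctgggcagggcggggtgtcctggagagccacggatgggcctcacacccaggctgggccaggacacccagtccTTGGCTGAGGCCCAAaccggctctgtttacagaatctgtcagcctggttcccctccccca
Tent5b, EBF: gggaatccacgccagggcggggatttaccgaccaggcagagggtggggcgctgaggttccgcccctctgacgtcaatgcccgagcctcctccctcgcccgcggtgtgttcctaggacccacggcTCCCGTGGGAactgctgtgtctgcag

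The A4galt site (149 and 145) held the AP-1 word TGACTCA 19484 bp from the nearest TSS. The Atp23 site (145 and 145) held an RFX palindrome with 1 mismatch and an ETS word in a region of 649 bp of hotspot in both replicates. The Wee1 site (142 and 137) held 2 CTCF matches on opposite strands, 1 without mismatch and 1 with 2 mismatches. The Ccnd3 site (148 and 144) lay in an intron, 6010 bp downstream of the TSS of this cyclin gene. The Fos site (147 and 138) lay 11180 bp downstream of the Fos TSS and held an SRF word at 70% GC. Fos encodes a subunit of AP-1 and is a classic target of SRF. The Jade2 site (147 and 142) held a steroid receptor palindrome with 1 mismatch. The Cdkn2aipnl site (145 and 139) held an NFI palindrome with 1 mismatch. The Tent5b site (141 and 131) held the EBF word.

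Peak scores chose the members and are given only as a description. In replicate 1 they ran from 110 to 150 with a median of 132, and in replicate 2 from 110 to 147 with a median of 119. The score was higher in replicate 1 at 3221 members, higher in replicate 2 at 311 and equal at 78. Of the 69446 other regions, 43807 had the higher score in replicate 1. The median difference, replicate 1 minus replicate 2, was 10 in members and 6 in the other regions. Just inside the threshold, 1063 members had a lower score at or less than 5 above it, with medians of 124 and 112. Just outside it, 1299 regions had a lower score at most 5 below it, with medians of 119 and 107. Of the members, 3565 were made of 1 peak in each replicate. Because scores ran higher in replicate 1, replicate 2 set the lower score at most members.

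**Figure D1:**
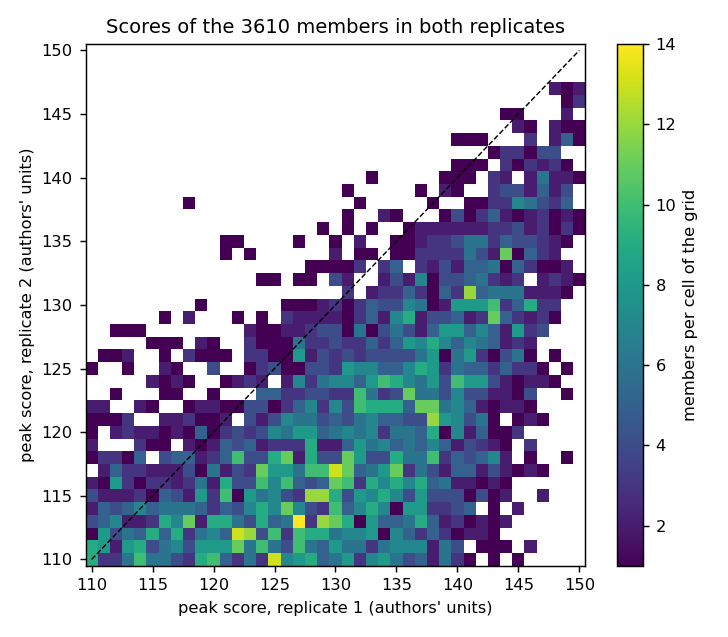
Peak score of each of the 3610 members in replicate 1 (horizontal) and replicate 2 (vertical), in the authors' units. Colour gives the number of members at each pair of scores, and the dashed line marks equal scores. Most members lie below the line, 3221 of them with the higher score in replicate 1.

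Sequence was not used by the rule. A motif was sought on both strands of the 150 bp around a region's centre, and in windows of the same length 1 kb to either side. Shares are given with 95% Wilson intervals, which cover counting error only, since regions of 1 cell line are not replicates of a condition. A match describes letters and does not show that a protein was bound.

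AP-1 words were the most frequent match after the short E-box CAGATG. The words TGACTCA or TGAGTCA stood in 759 members, 21% (19.7 to 22.4), against 14.3% (14 to 14.5) of the other shared distal regions and 2.48% of the windows beside members. The share was higher in members on 19 of 19 autosomes. Weighted to the GC content of members, the others held it in 12.7%. At least 2 AP-1 words were found in 85 members, 2.35% (1.91 to 2.90), against 1.08% of the others. Leaving out either replicate from the choice of members gave AP-1 shares of 20% to 20.5%.

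NFY words stood in 144 members, 3.99% (3.40 to 4.68), against 1.74% (1.64 to 1.84) of the others and 1.51% of the windows beside members. The share was higher in members on 19 of 19 autosomes. At the GC content of members the others would hold 1.66%. NFY matches were not gathered at the centre: 41.0% lay within 25 bp of it in members and 40.9% in the others. Without CpG-rich regions the shares were 3.61% in members and 1.73% in the others.

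Of the other promoter-type words, some were more frequent in members and some were not. NRF1 matches, with 1 mismatch allowed, stood in 54 members, 1.5% (1.15 to 1.95), against 0.314% of the others, or 0.552% at the GC content of members. They stood in 0.907% of members chosen without replicate 2 and in 0.747% without CpG-rich regions, against 0.247% and 0.215% of the others. The cyclic AMP response word TGACGTCA, bound by CREB and ATF proteins, stood in 36 members, 0.997% (0.721 to 1.38), against 0.435%, or 0.447% at the GC content of members. The ETS word CCGGAAGT stood in 22 members, 0.609% (0.403 to 0.921), against 0.262%, or 0.343% at that GC content. AP-2 words stood in 394 members, 10.9% (9.94 to 12), against 6.04%, and SP/KLF words in 61, 1.69% (1.32 to 2.16), against 0.655%. At the GC content of members the others would hold 9.46% for AP-2 and 1.51% for SP/KLF. Words of YY1 stood in 0.637% of members and 0.644% of the others, and those of ZFP143 in 1.08% and 1.18%. At the GC content of members the others would hold 0.664% for YY1 and 0.987% for ZFP143, so the ZFP143 direction turned. The ZFP143 interval of members (0.791 to 1.47) holds both values of the others, so no direction is resolved. The E-box CAGCTG, bound by helix-loop-helix proteins, stood in 19.8% of members and 15.1% of the others, or 19.3% at the GC content of members.

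CTCF matches, with 2 mismatches allowed, stood in 664 members, 18.4% (17.2 to 19.7), against 21.8% (21.5 to 22.1) of the others and 4.65% of the windows beside members. The share was lower in members on 16 of 19 autosomes, and with 1 mismatch allowed it was 8.64% against 12.2%. Words with exactly 3 mismatches at best were in turn more frequent in members, at 29.8% against 23%. This direction was not stable. Members held slightly more with a threshold of 100 (23.2% against 21.4%), without hotspots of 1000 bp or wider (23.8% against 23.0%) and in windows of 300 bp (26.9% against 25.8%). Without replicate 2 both shares were 16.0%. A member with a CTCF match held an AP-1 word in 9.49% of cases, and a member with an AP-1 word held a CTCF match in 8.30%. Both matches stood together in 63 members, against 139.6 if the 2 were independent, and in 761 of the others, against 2157.4. Joint matches were thus fewer than under independence in both sets.

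**Figure D2:**
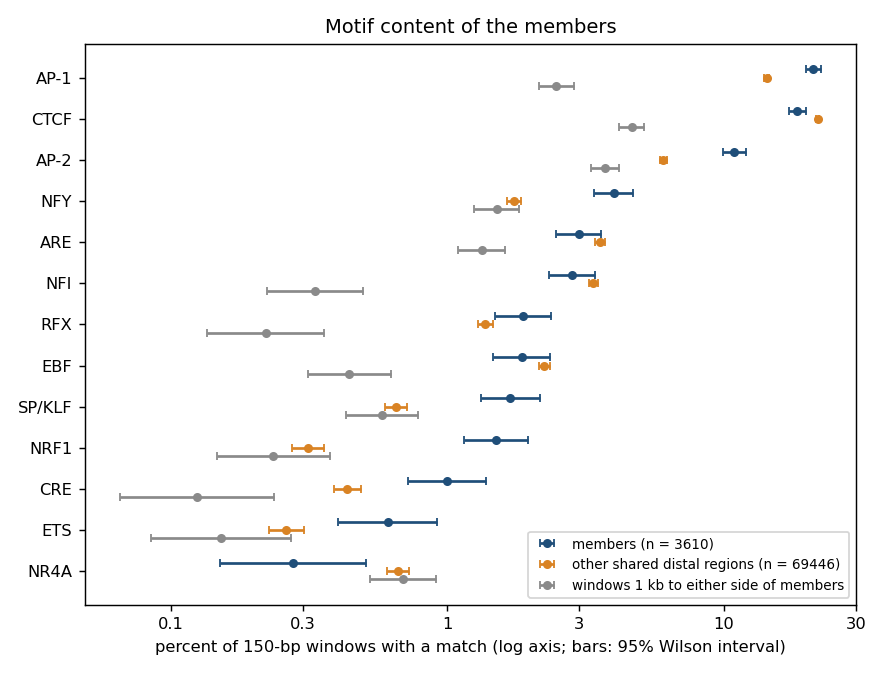
Percent of 150-bp windows with a match (log axis) for 13 motifs in members, in the other shared distal regions and in windows 1 kb to either side of members; bars are 95% Wilson intervals. AP-1 stands at 21% in members and 14.3% in the others, NFY at 3.99% and 1.74%, and CTCF at 18.4% and 21.8%.

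The score itself separated these motifs. Among all shared distal regions outside wide hotspots, the CTCF share rose from 16.3% at lower scores of 20 to 29 to 32.3% (30.8 to 33.8) at 90 to 99. It then fell to 21% at 110 to 119, 16.7% at 120 to 129 and 13.3% (10.8 to 16.3) at 130 to 150. The AP-1 share stayed between 13.2% and 14.6% from 20 to 89 and was 23.4% (21 to 25.9) at 120 to 129 and 20.4% (17.4 to 23.8) at 130 to 150. The NFY share was 1.47% (1.14 to 1.90) at 90 to 99, 2.91% at 110 to 119, 4.07% at 120 to 129 and 7.25% (5.43 to 9.63) at 130 to 150. The last bin held 593 members, 43 of them with an NFY word. The NFI share showed no such rise and was 2.02% (1.16 to 3.5) in that bin.

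**Figure D3:**
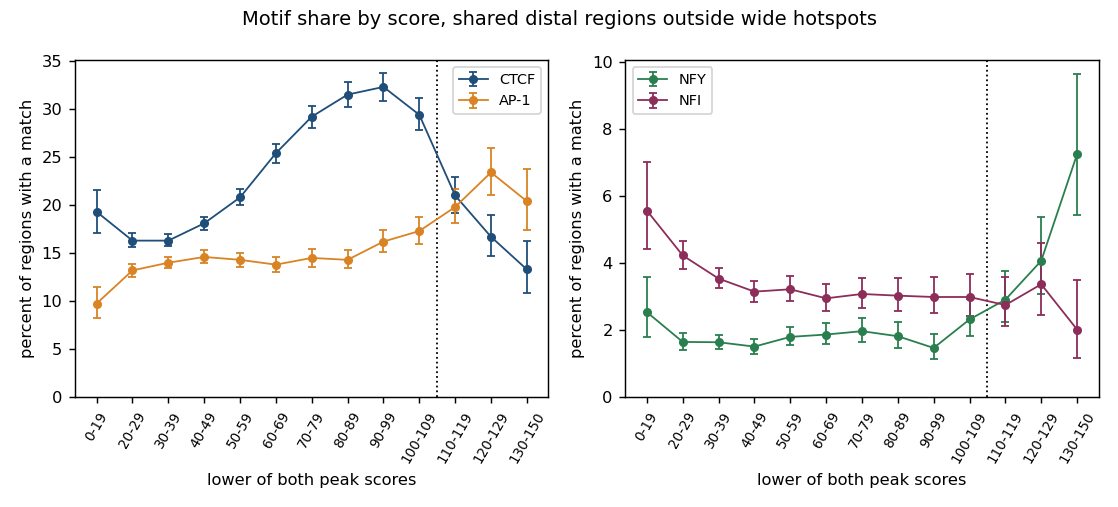
Percent of shared distal regions with a CTCF or AP-1 match (left) and an NFY or NFI match (right) by the lower of both peak scores; bars are 95% Wilson intervals and the dotted line marks the threshold of 110, with members to its right. The CTCF share peaks at 32.3% below the threshold and is 13.3% in the last bin, where NFY reaches 7.25%.

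Within members, CTCF matches also lay farther from the centre. The median distance of the best match was 25 bp in members and 16.0 bp in the others. Matches within 25 bp of the centre made up 51.1% (47.3 to 54.8) in members and 70% (69.3 to 70.7) in the others. For AP-1 the same shares were 49.1% (45.6 to 52.7) and 51.0% (50 to 52). For the RFX palindrome they were 39.7% (28.9 to 51.6) of 68 members and 59.9% (56.7 to 62.9) of the others.

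**Figure D4:**
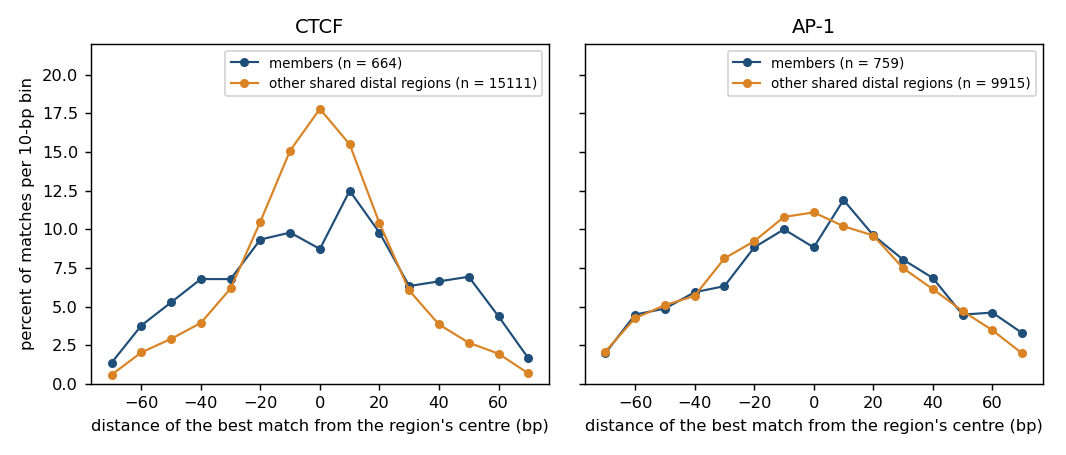
Distance of the best CTCF (left) or AP-1 (right) match from the centre of the region, as percent of matches per 10-bp bin, in members and in the other shared distal regions. CTCF matches of the others gather at the centre, 70% within 25 bp against 51.1% in members, and the AP-1 curves lie close together.

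Words of factors of neuronal and other lineages followed no single direction. The NFI palindrome, TTGGC and GCCAA separated by 5 bases with 1 mismatch allowed, stood in 2.83% (2.33 to 3.42) of members and 3.37% of the others. The EBF word, TCCC and GGGA separated by 2 bases, stood in 1.86% (1.46 to 2.35) and 2.24%. The RFX palindrome, with 2 mismatches allowed, stood in 1.88% (1.49 to 2.38) and 1.37%, and with 1 mismatch allowed in 0.526% of both. All 3 were more frequent in members than in the windows beside them, where NFI stood in 0.332%, EBF in 0.443% and RFX in 0.222%. NFI and EBF shares turned higher in members than in the others in windows of 300 bp, at 4.54% against 4.04% and 2.91% against 2.81%. The NR4A word AAAGGTCA stood in 10 members, 0.277% (0.151 to 0.509), against 0.665% of the others, 0.568% of the others at the GC content of members and 0.693% of the windows beside members.

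The steroid receptor palindrome is bound by the androgen receptor and by its relatives. Sought as AGAACA and TGTTCT separated by 3 bases with 2 mismatches allowed, it stood in 108 members, 2.99% (2.48 to 3.60). The others held it in 3.56% (3.42 to 3.7) and the windows beside members in 1.33%. At the GC content of members the others would hold 2.45%, so the direction turned with GC content. Without hotspots of 1000 bp or wider the shares were 3.79% in members and 3.76% in the others, and without replicate 2 they were 1.69% and 2.72%. With 1 mismatch allowed the palindrome stood in 24 members, 0.665% (0.447 to 0.987), against 0.765% of the others, or 0.501% at the GC content of members. Both values of the others lie inside that interval. Methyltrienolone-dependent opening cannot be read from these shares, since both replicates were treated.

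Of 12 motifs (CTCF, AP-1, NFI, EBF, RFX, steroid receptor, NRF1, CRE, SP/KLF, NFY, ETS and AP-2), members held none in 44.3% (42.7 to 45.9) of cases and at least 2 in 11.5% (10.5 to 12.5). For the others the shares were 51.1% and 6.60%. Among words of other lineages, the E-box CAGATG, bound by neuronal helix-loop-helix proteins, stood in 21.9% of members and 20.9% of the others. The homeodomain word TAATTA stood in 4.65% against 5.4%, and the GATA word AGATAAG in 2.55% against 3.03%. Both directions turned with GC content, since at the GC content of members the others would hold 3.04% and 2.29%. For GATA the interval of members (2.08 to 3.12) holds both values of the others, so no direction is resolved. The forkhead word TGTTTAC stood in 2.19% against 2.09%, or 1.55% at that GC content. PBX/HOX words (TGATTTAT) stood in 0.416% (0.252 to 0.684) of members and 0.733% of the others, and TEAD words in 0.942% and 1.33%. At the GC content of members the others would hold 0.471% for PBX/HOX, inside the interval of members, and 1.3% for TEAD. SRF words stood in 0.97% against 0.762%. RUNX words (TGTGGTTT) stood in 1.19% against 1.3%, POU words (ATGCAAAT) in 0.609% against 0.696% and heat shock words in 2.58% against 2.9%. For these last 3 the direction turned at the GC content of members, where the others would hold 1%, 0.498% and 2.25%. The intervals of members (0.886 to 1.6, 0.403 to 0.921 and 2.11 to 3.15) hold both values of the others, so no direction is resolved for these 3. MEF2 words stood in 0.111% against 0.114%, or 0.0862% at the GC content of members, and C/EBP words (TTGCGCAA) in 1 member against 37 of the others. A REST match was found in 1 member, near Prdm11, and in 14 of the others, and a word of the tRNA B box in 3 members and 74 of the others.

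The 10 words of 8 bases with the largest ratio to the others, among those in at least 2% of members, were led by GCCCCGCC, found in 3.41% (2.86 to 4.05) of members and 0.831% of the others. It was followed by CCCGCCCA at 2.08% against 0.508%, CCCCGCCC at 3.74% against 1.16% and CCCGCCCC at 3.10% against 0.992%. These 4 are variants of the GC box that SP and KLF proteins bind. The next 4, CAGGCCCC, GCCCAGGC, GCCCAGCC and CCCAGCCC, were 2.12 to 2.36 times as frequent in members. GACTCACC, which holds 6 of the 7 letters of an AP-1 word, stood in 2.69% against 1.29%. The tenth was GCCTGGCC, at 4.18% against 2.03%. Shares of these words were not weighted to GC content, which was higher in members. The SP/KLF word GGGGCGGGG stood in 1.69% of members and 0.655% of the others, or 1.51% at the GC content of members.

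Members were richer in GC and in CpG dinucleotides than the others. The median GC content of the window was 54.7% in members and 50% in the others. CpG-rich windows, with an observed to expected CpG ratio over 0.6 and over 50% GC, made up 395 members, 10.9% (9.96 to 12), against 2.36% (2.25 to 2.47) of the others. Chosen without replicate 2, 7.06% of members were CpG-rich. CpG-rich members were mostly intergenic (68.6%) and held an NRF1 match in 7.59%, a CTCF match in 23.0% and an AP-1 word in 9.87% of cases. The others that were CpG-rich held NRF1 in 4.40% and NFY in 2.01%, against 7.09% for NFY in CpG-rich members. Windows more than 50% soft-masked as repeats made up 0.776% of members and 3.97% of the others.

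Some CpG-rich members lay at starts that GENCODE M21 does not list. A RefSeq TSS stood within 250 bp of 91 members, 2.52% (2.06 to 3.08), against 1.09% of the others, and 20 of the 91 were CpG-rich. With the Wnt7b site already described, these 20 include sites at RefSeq starts of Sf3b5 (scores 146 and 143), Prdm2 (148 and 141), Prr5 (143 and 133) and Zfp869 (143 and 137), named here after their values were seen. Without regions within 1 kb of a RefSeq TSS, 3419 members remained, with an AP-1 share of 21.2% and an NFY share of 3.60%.

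Members also gathered at tRNA genes, short genes read by RNA polymerase III. A tRNA gene of the RefSeq annotation had its middle within 500 bp of the centre of 53 members, 1.47% (1.12 to 1.92), against 0.243% (0.209 to 0.283) of the others. Of 386 autosomal tRNA genes, 61 had a member that close and 174 any shared distal region outside wide hotspots. On chromosome 11 there were 15 such members and on chromosome 1 there were 8. Of the 53 members, 26 were CpG-rich and 3 held the tRNA B box. The share was 0.534% against 0.161% at more than 10 kb from any TSS, and 0.853% against 0.192% without replicate 2. Of the 54 members with an NRF1 match, 20.4% lay within 500 bp of a tRNA gene, but no NRF1 match lay inside one. Without members near tRNA genes the NRF1 share was 1.21% against 0.312%.

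By position, 1751 members (48.5%, 46.9 to 50.1) were centred in introns, 1666 (46.1%) in intergenic sequence and 193 (5.35%) in exons. Among the others the shares were 52.9%, 42.4% and 4.79%. Without CpG-rich regions the intron shares were 51.8% in members and 53.3% in the others. The median distance to the nearest TSS was 10569 bp in members and 12537 bp in the others, and 6.70% of members lay over 50 kb from a TSS against 10.9%. The farthest member, on chromosome 12 and nearest to Rad51b, lay 278912 bp from any TSS. Distances of members start at 2505 bp because the rule left out closer regions.

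Hotspots around members were wider, within the limit the rule set. The smaller hotspot of both replicates had a median width of 829 bp in members and 280 bp in the others. Members with a CTCF match stood in narrower hotspots (median 631.5 bp) than those with an AP-1 word (785 bp) or CpG-rich members (966 bp). Width comes from the same reads as the score, so these widths are a description. Both replicates placed the highest peak at the same position in 42.4% of members and 32.3% of the others, and within 20 bp, the step of the peak grid, in 85.2% and 73.6%.

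Members had open neighbours more often than the others did. No other shared region lay within 1 kb of 43.4% (41.8 to 45) of members and of 65.7% (65.3 to 66.0) of the others. Without hotspots of 1000 bp or wider the shares were 63.1% and 72.2%. Another member lay within 10 kb of 27.8% (26.4 to 29.3) of members, and a member lay within 10 kb of 11.7% of the others. Members with a CTCF match were alone within 1 kb in 49.8% and those with an AP-1 word in 50.3% of cases, against 30.1% of CpG-rich members.

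Loop anchors are known for convergent CTCF sites, so the orientation of neighbouring matches was counted. Successive members with a match on a chromosome made 645 pairs. Of these, 182 (28.2%, 24.9 to 31.8) were convergent, 184 (28.5%) divergent and 279 (43.3%) in the same orientation. Pairs among the others were convergent in 24.9%, divergent in 24.9% and alike in 50.1%. With 1 mismatch allowed, 23.9% (19.4 to 29.1) of 293 pairs of members were convergent. The median distance between such neighbours, with 2 mismatches allowed, was 731040 bp in members and 55955 bp in the others. Neighbours were taken within each set, of 664 and 15111 regions, so this distance depends on set size. Matches of the others can lie between paired members, so the orientation of a pair does not describe adjacent sites.

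Members were unevenly spread over chromosomes. Their share of shared distal regions outside wide hotspots was 8.22% (7.34 to 9.18) on chromosome 15, 8.03% on 8, 6.39% on 11, 6.20% on 10 and 6.14% on 17, against a median of 4.38% over the 19 autosomes and 2.49% (1.92 to 3.22) on 16. These 5 chromosomes, picked out after their values were seen, held 39.8% of members and 28.3% of the distal regions. Promoter scores were also higher on these 5. The median lower score of regions within 1 kb of a TSS was 84 to 89 on these 5 and 75 to 83 on the other 14. Over all 19 autosomes the Spearman correlation of this median with the member share was 0.499 and the Pearson correlation 0.71. The other 14 did not all follow this order: chromosome 3 had a median of 83 and a share of 3.57%, chromosome 2 had 78 and 4.93%. Both measures share the libraries and their score scale, and the part of promoter scores in the member share was not tested. The number of copies of each chromosome in this line was not measured here, so member shares by chromosome, by stretch and by gene cannot be told apart from it. Taking the same share of distal regions on each autosome gave 3609 members, with AP-1 at 21.6% against 14.2%, NFY at 4.18% against 1.73% and CTCF at 17.7% against 21.8%.

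**Figure D5:**
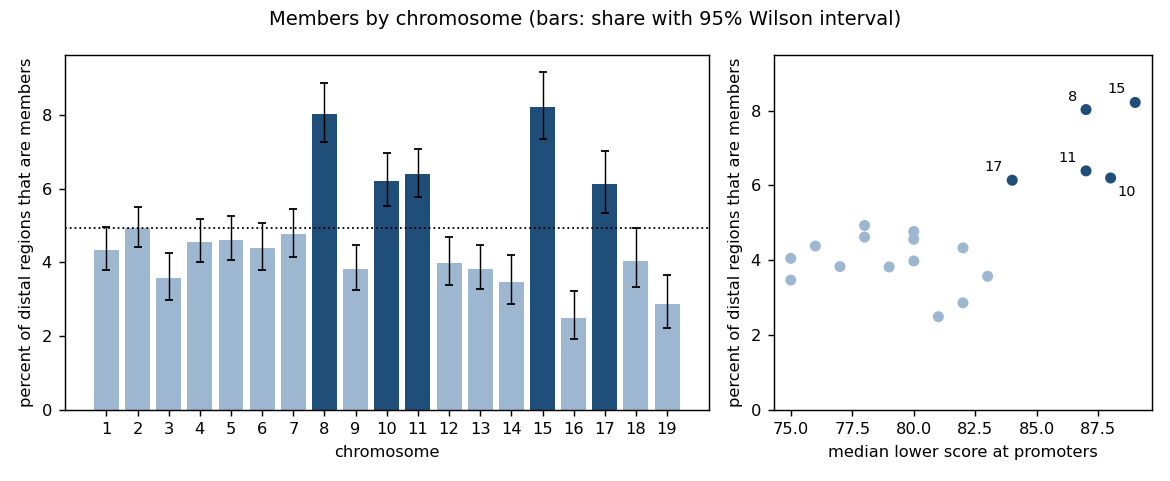
Left, percent of shared distal regions outside wide hotspots that are members, by chromosome, with 95% Wilson intervals; the dotted line is the overall 4.94%. Right, the same percent against the median lower score of promoter regions, 1 point per chromosome; the 5 dark chromosomes have the highest values on both axes.

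On a finer scale the end of chromosome 8 stood out. Between 120 and 130 Mb, 168 of 1181 distal regions (14.2%, 12.3 to 16.3) were members, the third highest share among 217 bins of 10 Mb with at least 100 regions. The bins above it held fewer members, 45 of 285 on chromosome 15 between 100 and 110 Mb and 23 of 161 on chromosome 11 beyond 120 Mb. Of the 8 protein-coding genes nearest to most members, 4 lie in that stretch of chromosome 8. Gse1, which encodes a chromatin-associated coiled-coil protein (chr8:120228456-120581390), was nearest to 33 members among 117 distal regions. Irf2bp2, a transcriptional corepressor gene, was nearest to 12 of 50, Zfpm1, the gene of the GATA cofactor FOG1, to 11 of 58, and Foxl1, a forkhead gene, to 10 of 46.

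The other 4 of these genes were Slit3, Zmiz1, Pde4d and Bahcc1. Slit3, which encodes a secreted axon guidance protein, was nearest to 14 members of 84 distal regions. Zmiz1, a gene for a coactivator of the androgen receptor, was nearest to 13 of 124, and Pde4d, a cyclic AMP phosphodiesterase gene, to 11 of 90. Bahcc1 was nearest to 10 of 40, and Crb2, which the tie rule left out, also to 10, of 22. Members were otherwise dispersed: 2258 genes were nearest to at least 1 member, 1531 of them to exactly 1 and 72 to 5 or more.

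For gene lists, a member was counted for every gene with a TSS within 50 kb, not only for the nearest gene. Genes that lie close together can thus share members, and over all protein-coding genes there were 6922 pairs of member and gene. Gene lists were read against all protein-coding autosomal genes, of which 4218 of 20780 (20.3%) had a member within 50 kb of a TSS. Among pan-neuronal genes, 12 of 23 did, 52.2% (33.0 to 70.8). Tubb3, the neuronal tubulin gene, had 6 members, Nefh, the heavy neurofilament gene, 5 and the synaptic vesicle gene Vamp2 4. Of motor neuron genes 5 of 24 did, a share near the background, with 2 members at Chat and 2 at Slc18a3, which share a locus and are the genes of the enzyme and the vesicle transporter of acetylcholine, and 1 at Lhx4. Of sympathetic and neuroblastoma genes 6 of 24 did, led by Ddc with 3 and by Lmo1, Tbx2 and Th with 2 each. Pan-neuronal genes also had more distal regions nearby, 11.2 per gene against 5.40 over all genes, of which 10.1% were members against 6.17%. The same member share was 9.87% for fibroblast and mesenchymal genes and 9.86% for epithelial and prostate genes. It ran from 1.14% to 7.14% for the housekeeping, skeletal muscle, blood and hepatocyte genes listed below.

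Genes of the factors whose motifs were sought were counted in the same way. Of 14 NFI, EBF and RFX genes, 9 did (64.3%, 38.8 to 83.7), led by Nfix with 5 members, Rfx2 with 4 and Ebf2 and Ebf3 with 2 each. Of 18 AP-1 and activity genes, 7 did (38.9%, 20.3 to 61.4), led by Nr4a1 with 6, the Jun-family gene Jund with 4 and the Fos-family gene Fosb with 3. These lists too had more distal regions nearby, 10.4 and 9.94 per gene, of which 12.3% and 11.7% were members. Of 11 CTCF and cohesin genes, 3 did (27.3%, 9.75 to 56.6), an interval that holds the background, with 2 members at Ctcf and 1 each at Pds5b and Zfp143. Of 31 androgen response genes, 6 did (19.4%, 9.19 to 36.3), a share near the background. Sgk1, a kinase gene induced by steroid hormones, had 4 members, and Cited2, Odc1 and Per1 had 2 each.

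Lists for other tissues ran from below to above the background with wide intervals. A member lay near 6 of 18 housekeeping genes, led by Actb with 4, and Eef1a1 and Ppia with 1 each. It lay near 5 of 18 skeletal muscle genes, with 2 at Acta1 and Mb and 1 at Chrna1, and near 5 of 20 fibroblast and mesenchymal genes, with 8 at Fbln2, 3 at Fbln1 and 2 at Fosl2. It lay near 3 of 17 epithelial and prostate genes, with 3 at Krt8 and 2 at Cldn4 and Krt18. Of 19 blood genes 2 did, Spi1 with 3 members and Lyz2 with 1. Of 17 hepatocyte genes 1 did, G6pc. Lists of 11 to 31 genes give no more than these counts, and a site near a gene is not shown to act on it.

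Enhancers tested in mouse embryos gave an outside view of some members. In the RefSeq annotation, 50 members, 1.39% (1.05 to 1.82), lay in a VISTA enhancer, an element with tested activity, against 0.477% of the others. They fell in 46 of the 617 autosomal elements. Activity in the nervous system was listed for 54.3% (40.2 to 67.8) of these 46, for 53.1% of the 179 elements that held only other shared distal regions and for 49.1% of all 617. Sensory ganglia were listed for 9 of the 46 (19.6%, 10.7 to 33.2), for 7.82% (4.72 to 12.7) of the 179 and for 6.48% of all. Heart was listed for 32.6%, 26.8% and 25.8%. Near Gse1, 3 members lay in elements active in hindbrain, forebrain or heart, with scores of 133 and 119, 145 and 138, and 143 and 119. The Wee1 site with the CTCF match shown above and a second member beside it (132 and 125) lay in 1 element active in dorsal root ganglion and heart. The element with a member near Bahcc1 (149 and 138) was active in dorsal root ganglion.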

How the data were processed

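DNase-seq peaks and hotspots of both libraries were analysed. Per the listing deposited with each library, they were made from that library's own alignments to mm10 and were not pooled. For aligner and caller, the sources used here name none. The authors deposited a score for each peak, a whole number from 1 to 150 whose meaning the sources used here do not state. It was used only to rank and filter peaks within a list. The −log10 of a false discovery rate that the authors deposited for each hotspot was not used. Read counts were not analysed here, so depth is unknown. Repeated peak entries (15 and 26) were counted once.

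Regions were annotated with GENCODE M21 and with the RefSeq annotation of GRCm38, the assembly of mm10. Shares have 95% Wilson intervals. The comparison set was every shared distal region outside wide hotspots below the score threshold. The 30 motifs were sought on both strands, with 2 mismatches for CTCF, RFX, REST and the steroid receptor palindrome, 1 for NFI, NRF1, YY1, ZFP143 and heat shock words and none for the rest. Shares at the GC content of members weight the others over 5 bins of GC content. No test was run, since there is 1 group of 2 replicates, and nothing says how separately the cultures were grown.

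The members, the 14 gene lists and the motifs were chosen with earlier results of these data known. The result of 1 list is not reported here. Named were the 12 highest members, the highest member for each motif, their nearest genes and the 8 genes nearest to most members. Up to 3 genes with most members in each list, some genes tied with them and 10 words were also named. A few named for other reasons are marked. The scripts recovered planted regions and motifs in simulated data. Python 3.11.15, numpy 2.4.6, scipy 1.17.1, pandas 2.3.3 and matplotlib 3.10.9 were used.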

Additional observations from a re-analysis of the deposited data

Results flagged for a closer look

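The rule was set for autosomes, and chromosome X was outside it. Applied to chromosome X, the same score, distance and hotspot limits gave 26 regions of 1378 shared distal regions outside wide hotspots, 1.89% (1.29 to 2.75), above the 0.218% that a count of 0 allows. The share on chromosome X was below the 4.94% of all autosomes and the 2.49% of chromosome 16, the lowest autosome. On chromosome Y the same limits gave 3 of 34.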

How the results depend on the processing

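No paired analysis was possible because there is 1 group and no result comes from a test. The AP-1 and NFY shares were higher in members than in the others under all 16 alternatives run for each, and the NRF1 share under all 17. The CTCF share was lower in members under 13 of 17. The number of members was 6456 at a threshold of 100, 1722 at 120, 1871 at more than 10 kb from any TSS, 1770 without hotspots of 1000 bp or wider and 2172 without chromosomes 8, 10, 11, 15 and 17. The CTCF share was 23.2%, 15.6%, 16.6%, 23.8% and 16.7% under those same settings, 8.64% with 1 mismatch fewer and 26.9% in windows of 300 bp. The AP-1 share was 19.4% at a threshold of 100, 23.3% without hotspots of 1000 bp or wider, 26.6% in windows of 300 bp, 22.8% without the 5 chromosomes and 22.4% without CpG-rich regions. The CpG-rich share was 9.09% at a threshold of 100, 13.9% at 120, 8.93% beyond 10 kb, 12.1% with hotspots of any width and 8.19% without those of 1000 bp or wider. The intron share was 51.2% without hotspots of 1000 bp or wider and 51.8% without CpG-rich regions. The median distance to a TSS was 14168 bp beyond 5 kb, 20181 bp beyond 10 kb, 9868.5 bp without hotspots of 1000 bp or wider and 11103.5 bp without the 5 chromosomes; the distance limits and the hotspot limit change which regions enter, and otherwise the cause was not tested. Choosing members from 1 replicate alone gave 4028 to 9149 members, the higher number from replicate 1, with CTCF at 16.0% to 19.4%, AP-1 at 20% to 20.5%, introns at 48% to 52.2%, CpG-rich at 7.06% to 11% and a median distance of 10639.5 bp to 11467 bp. Leaving out chromosomes, CpG-rich regions, regions near tRNA genes or near RefSeq starts, the equal share per autosome and all settings for NFY and tRNA genes were chosen after seeing the data. Depth was unknown, so the absence of a peak does not show closed chromatin.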
